A study of Mus musculus with 30 samples.

Results

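Heat shock chaperone genes were followed in cells sorted as macrophages from a mouse leukaemia model. Every probe of the array was taken whose annotated symbol, current or older, was Hspa1a, Hspa1b, Hspa8, Hsph1, Hsp90aa1, Hsp90ab1, Dnajb1, Dnaja1, Hspe1 or Hspd1. Of these 10 genes, 9 had a probe, 18 probes in all among the 45281 on the array, and 16 of the 18 were detected on at least 3 arrays and kept. All 9 genes could be tested, among 11937 genes in the whole series; Hsp90ab1 was not analysed here. F4/80-positive macrophages had been sorted from spleen (SP) or bone marrow (BM) of C57BL/6 mice that all carried 1 copy of the Eµ-TCL1 transgene, which expresses a human oncogene in B cells and gives a leukaemia like chronic lymphocytic leukaemia. The knockout (KO) mice were TCL1+/wt Mif-/- and lacked macrophage migration inhibitory factor, a secreted cytokine, and the wild-type (WT) mice were TCL1+/wt Mif+/+; leukaemic (l) and non-leukaemic (nl) mice of both genotypes were used. Each of the 30 samples had 1 bead array. The spleen groups were KO-l-SP with 4 arrays and WT-l-SP, KO-nl-SP and WT-nl-SP with 3 arrays each, and the marrow groups were KO-l-BM with 6 arrays, WT-l-BM with 5, and KO-nl-BM and WT-nl-BM with 3 each. The labels give an age of 2 to 5 months for every leukaemic group and 10 to 15 months for every non-leukaemic group, so leukaemia and age cannot be told apart, and the labels do not settle whether the ranges were swapped between the groups. The labels name no animals, so some arrays may come from the same mouse, and the p-values reflect only how far these arrays spread, in part perhaps for technical reasons.

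Chaperones bind unfolded proteins and help them fold, refold or reach degradation. Hsp70 proteins bind short stretches of a client, J-domain proteins bring the client and start ATP hydrolysis, Hsp110 proteins release the nucleotide again, Hsp90 acts later on kinases and receptors, and Hsp60 with Hsp10 forms a folding chamber in mitochondria. Under proteotoxic stress the transcription factor HSF1 forms trimers and binds inverted GAA repeats in the promoters of many of these genes, and the inducible Hsp70 genes are among its best known targets. In macrophages these proteins are also known for their roles in antigen handling and in survival under inflammatory stress.

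The promoters are shown for the genes that differed between spleen and marrow, together with 2 that did not, because they hold different arrangements of these repeats. RefSeq promoters of build GRCm38.p6 were at hand for 7 of the 10 genes, as 12 transcription starts, and those of Hspa8, Hsp90aa1 and Hsp90ab1 were not used. The 250 bases before each start were searched on both strands for GAANNTTC and for TTCNNGAA, each of which reads the same on both strands, and for the longer motif of 3 repeats in which one of these overlaps the other by 3 letters. Either short motif was found in 7 of the 12 promoters, from 6 of the 7 genes (Hspa1a, Hspa1b, Hsph1, Hspe1, Hspd1 and Dnaja1), against 12.8% of 32851 promoters of the same length in the table. The longer motif was found for Hspe1 and Hspd1, against 0.466% of all promoters. A match is a description of letters, not a bound site. The last 120 bases before the start are printed 5′ to 3′ along the gene, with the motif matches in capitals:
Hspa1a, chr17:34972157-34972276, minus strand: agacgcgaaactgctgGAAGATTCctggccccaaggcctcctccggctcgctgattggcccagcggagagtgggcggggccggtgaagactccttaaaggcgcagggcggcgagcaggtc
Hspa1b, chr17:34959239-34959358, minus strand: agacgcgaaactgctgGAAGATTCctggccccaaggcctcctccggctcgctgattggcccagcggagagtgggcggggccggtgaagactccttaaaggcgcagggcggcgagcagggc
Hsph1, chr5:149636337-149636456, minus strand: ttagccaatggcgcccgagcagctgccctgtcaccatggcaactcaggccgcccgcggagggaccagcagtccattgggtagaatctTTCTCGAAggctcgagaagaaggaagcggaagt
Hspe1, chr1:55088028-55088147, plus strand: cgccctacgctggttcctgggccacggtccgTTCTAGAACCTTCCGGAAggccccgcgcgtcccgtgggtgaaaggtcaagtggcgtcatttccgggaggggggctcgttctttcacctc
Dnajb1, chr8:83608055-83608174, plus strand: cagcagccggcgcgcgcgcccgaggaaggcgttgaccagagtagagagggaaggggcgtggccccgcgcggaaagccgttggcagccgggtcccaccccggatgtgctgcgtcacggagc

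The motif began 104 bases before the start in both Hspa1a and Hspa1b and 33 bases before it in Hsph1. In Hspe1 3 overlapping matches began 89, 84 and 79 bases before the start. Hspe1 and Hspd1 lie head to head on chromosome 1 with gene spans that share 96 bases, and the same run of letters therefore also stood before the second annotated start of Hspd1, beginning 144 bases from it. Neither Dnajb1 promoter held a match in this window. Hspa1a and Hspa1b lie 10120 bases apart on chromosome 17, and their 250-base promoters were identical at 247 bases (98.8%). The coding sequences of this gene pair are also known to be nearly identical, so signals of the Hspa1a and Hspa1b probes may come from either gene and are uncertain in that respect.

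The arrays were alike in depth of signal, with raw median intensities of 76.5 to 96.8 and 36.4% to 41.0% of probes detected per array. Mif separated the genotypes on every array, at log2 5.07 or less in knockout and 10.41 or more in wild-type samples. Adgre1, which encodes F4/80, lay between 7.70 and 10.75. Neutrophil, erythroid and proliferation genes were detected as well: all 10 neutrophil markers tested were detected on every marrow array, and 9 of the 10 on every spleen array. Over all 11937 genes, 3 of the 13 spleen arrays had a marrow array as their closest match by correlation, namely KO-l-SP replicate 2, KO-nl-SP replicate 6 and WT-l-SP replicate 3, and 3 of the 17 marrow arrays had a spleen array as theirs. The mean log2 of the neutrophil markers on those spleen arrays was 10.82, 10.76 and 12.99, against a median of 8.25 over the 13 spleen arrays and 11.60 over the 17 marrow arrays. WT-nl-SP replicate 1 also stood apart, with no correlation above 0.928 to any other array. The arrays lay on 6 slides, and slide 6 held 6 leukaemic marrow arrays, 3 of each genotype, and nothing else.

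The largest difference among the chaperones was between tissues. Hspa1a, an inducible cytosolic Hsp70, was 7.32-fold higher in cells sorted from spleen than in cells sorted from marrow, over the 4 conditions. Hsph1, the Hsp110 that serves Hsp70 as nucleotide exchange factor, was 1.95-fold higher. Hspa1b, the near copy of Hspa1a, was 1.30-fold higher, close to the detection limit. The other 6 genes did not pass the test. Both sorts also held neutrophil transcripts, at higher levels in marrow, and their part in these differences was not tested.

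Hspa1a had deposited intensities of 1406, 150, 244 and 474 in KO-l-SP, 172, 296 and 108 in WT-l-SP, 1517, 248 and 173 in KO-nl-SP and 482, 289 and 444 in WT-nl-SP. In marrow the intensities were 96.3, 103 and 147 in KO-l-BM (lowest, median, highest), 126, 83.8, 116, 89.3 and 180 in WT-l-BM, 88.5, 92.9 and 138 in KO-nl-BM, and 76.2, 85.3 and 86.2 in WT-nl-BM. The probe was detected on 13 of 13 spleen and 13 of 17 marrow arrays. After background correction and normalisation the spleen arrays lay at log2 4.77 to 10.90 with a median of 8.10, and the marrow arrays at 4.21 to 6.90 with a median of 4.80. Of the spleen arrays, 9 of 13 were above every marrow array, as for Hsph1, against 7 of 13 for Hspa8, which did not pass. The share of all genes with such counts was not taken. For Hspa1a the other spleen arrays were KO-l-SP replicate 2 (6.40), KO-nl-SP replicate 6 (6.45) and WT-l-SP replicates 1 (6.78) and 3 (4.77). Within spleen the spread was wide, with KO-l-SP replicate 1 (10.45) and KO-nl-SP replicate 4 (10.90) far above the rest, while the WT-nl-SP arrays were close together at 8.16, 8.10 and 8.54.

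The mean log2 difference of Hspa1a, spleen minus marrow, was 2.87 ± 0.45 (SE; limma adjusted p = 0.000178), with group means of 7.89 in spleen and 5.01 in marrow. Of the chaperones tested, 3 of 9 passed in this direction and 0 in the other, against 8.5% of all tested genes called higher in spleen and 7.25% called lower. The Hspa1a and Hspa1b probes may read either gene, so their calls are not independent. By condition the difference of Hspa1a was 3.45 ± 0.78 in leukaemic knockout (limma adjusted p = 0.0259), 3.75 ± 0.98 in non-leukaemic wild type (adjusted p = 0.0335), 3.19 ± 0.98 in non-leukaemic knockout (adjusted p = 0.188) and 1.09 ± 0.88 in leukaemic wild-type mice (adjusted p = 0.723). The spleen arrays lay wholly above the marrow arrays in the first 3 of these conditions, as did 2.25%, 11.9% and 8.09% of all genes, and the differences were not tested against each other. Hspa1a was the chaperone called in leukaemic knockout and in non-leukaemic wild type, where 1.03% and 1.8% of all genes were called higher; in non-leukaemic knockout and leukaemic wild type 0 of 9 were called, with 1 and 2 at an unadjusted p under 0.05, against 0% and 0.0168% of all genes called and 10.6% and 10.3% at an unadjusted p under 0.05. The call in leukaemic knockout was lost without KO-l-SP replicate 1, 3 or 4 or KO-l-BM replicate 4, 5 or 6 (limma adjusted p = 0.0587 to 0.103), with slide as a block (3.18, adjusted p = 0.166) and with the replicate number as a block (3.11, adjusted p = 0.109), and the call in non-leukaemic wild type without WT-nl-SP replicate 1 or 3 or any 1 of the 3 WT-nl-BM arrays (adjusted p = 0.0645 to 0.117), whereas the call over all 4 conditions was kept without any 1 of the 30 arrays.

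**Figure D1:**
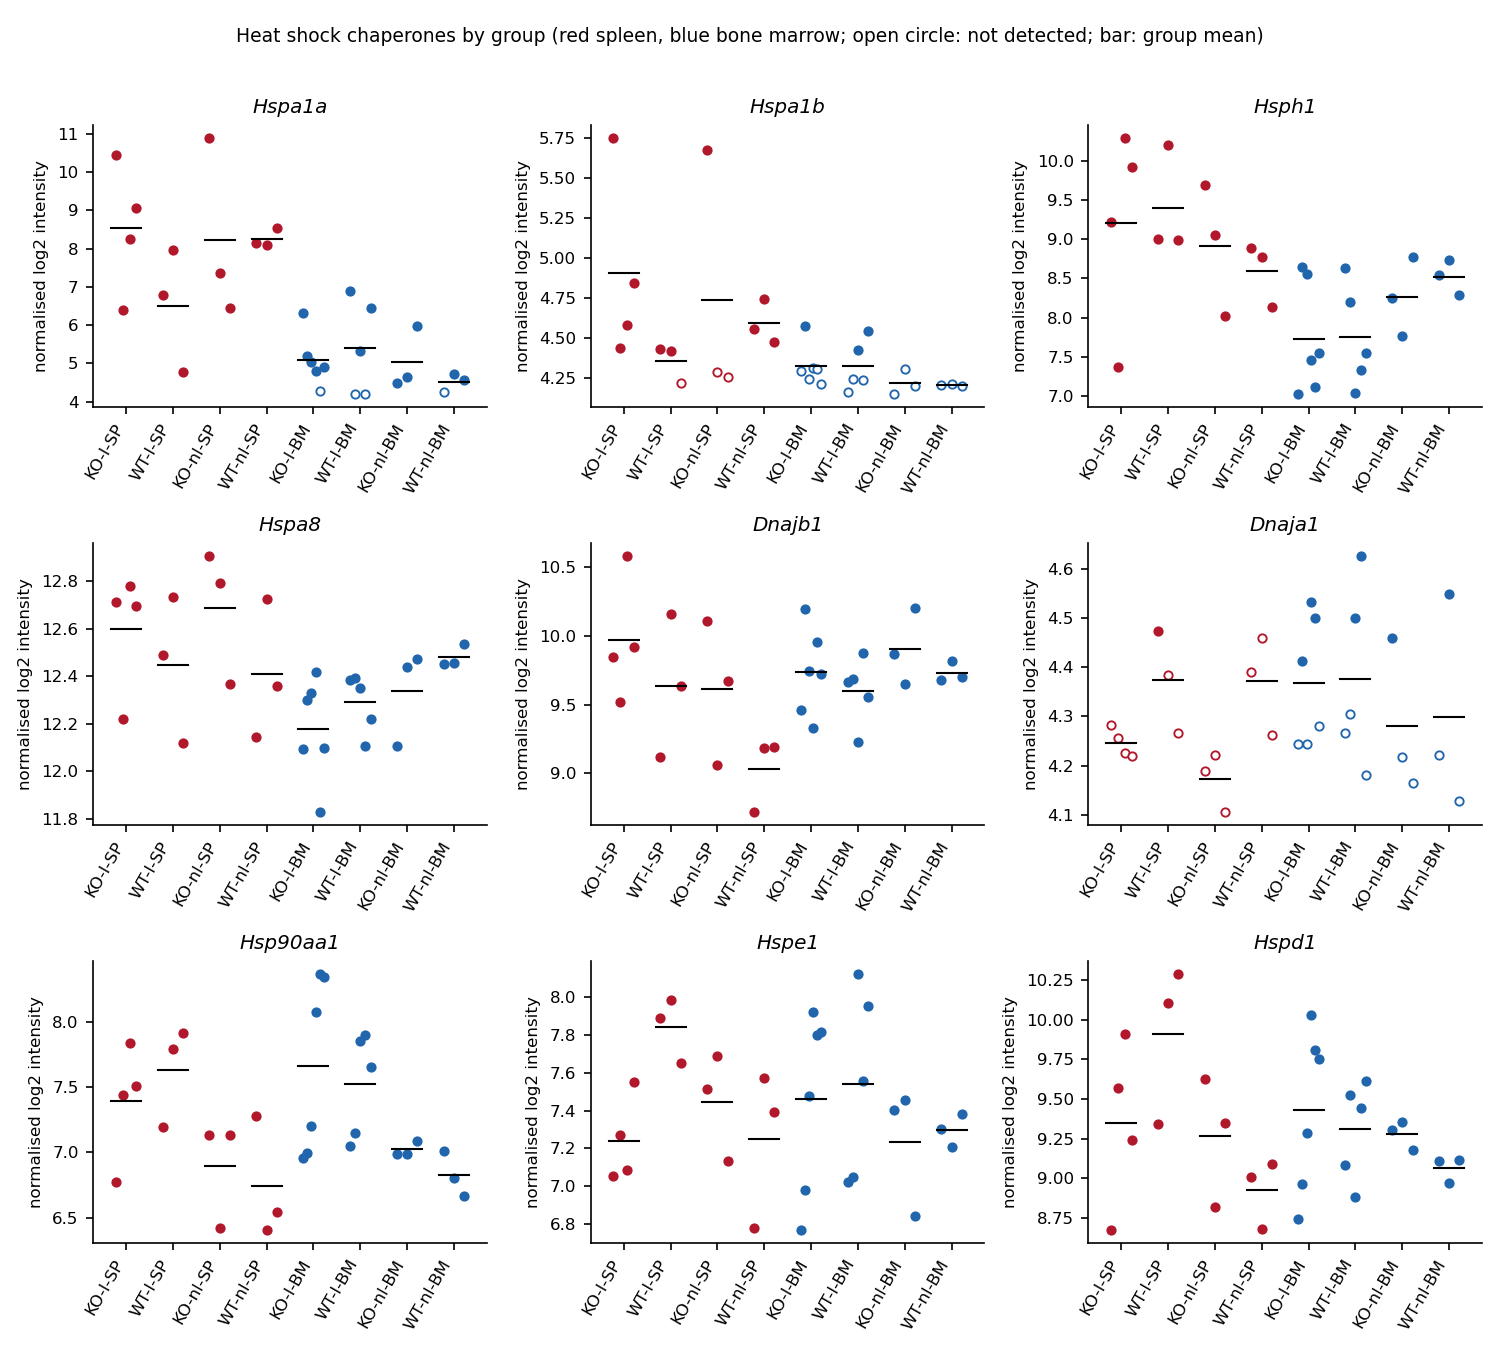
Normalised log2 intensity of the tested probe of each of the 9 chaperones on every array (y axis) by group (x axis), with spleen groups in red, marrow groups in blue, open circles for arrays that did not detect the probe and bars for group means. Hspa1a and Hsph1 sit higher in spleen, with 9 of 13 spleen arrays above every marrow array for each, against 7 of 13 for Hspa8. Hsp90aa1, Dnaja1 and Hspe1 have no spleen array above every marrow array.

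Slides gave the same direction for Hspa1a. On each of the 5 slides that held both tissues its mean was higher in spleen, by 0.80 to 5.02 on the log2 scale. On 3 of them the arrays did not overlap. Spleen likewise lay wholly above marrow on 3 slides for Hspa8, Hsph1 and Hspe1 and on 4 for Hspa1b. These slides held few arrays of each tissue, and the share of all genes was not counted. All conditions on a slide were pooled, so the tissues on it could differ in genotype, leukaemia and age. Over the 4 conditions the Hspa1a difference was 2.97 ± 0.54 with slide as a block (limma adjusted p = 0.00143). It was 3.28 ± 0.44 without KO-l-SP replicate 2, WT-nl-SP replicate 1 and WT-l-SP replicate 3 (adjusted p = 2.46e-05). Without the 2 arrays of highest Hspa1a it was 2.38 ± 0.37 (adjusted p = 0.000424). Many marrow values lay near background, and on values without background correction the difference was 1.70 ± 0.32 (adjusted p = 0.000907).

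Both other Hspa1a probes moved the same way, although they were dimmer. The second was detected on 12 of 13 spleen and 2 of 17 marrow arrays, and had intensities of 169, 85.3, 90.7 and 110 in KO-l-SP and 194, 92.1 and 91.9 in KO-nl-SP. It was not detected on any KO-l-BM, KO-nl-BM or WT-nl-BM array, which puts spleen at least 2.27-fold higher in leukaemic knockout, 2.13-fold higher in non-leukaemic knockout and 1.45-fold higher in non-leukaemic wild type; here and below, "at least" sets the brighter group's mean against the lowest detected signal of each array in the other group, or the dim probe's own where that is higher. The third was detected on 6 of 13 spleen and 0 of 17 marrow arrays. In a fit over all 23515 kept probes the 3 probes differed by 2.87, 0.92 and 0.33 on the log2 scale (limma adjusted p = 0.000205, 0.0105 and 0.0451). Across the 30 arrays the probes correlated at r = 0.80 to 0.92, which describes arrays that share their tissue groups.

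Hspa1b was detected on 10 of 13 spleen and 3 of 17 marrow arrays. Its normalised values were 5.75, 4.44, 4.58 and 4.85 in KO-l-SP, 4.43, 4.42 and 4.22 in WT-l-SP, 5.67, 4.29 and 4.26 in KO-nl-SP and 4.56, 4.75 and 4.47 in WT-nl-SP, and 4.16 to 4.58 on the marrow arrays. The 2 arrays with high Hspa1a were also the 2 with Hspa1b above 5. The difference was 0.38 ± 0.13 (limma adjusted p = 0.0432), and it passed the test in 9 of the 30 fits that left out 1 array. No KO-nl-BM or WT-nl-BM array detected the probe, so that spleen was at least 1.08-fold higher in non-leukaemic wild type, which did not pass alone (limma adjusted p = 0.48). In non-leukaemic knockout 1 of 3 spleen arrays detected it, KO-nl-SP replicate 4, and the difference of 0.52 ± 0.27 was 0.05 ± 0.22 without that array. Its second probe was detected on 4 of 13 spleen arrays and 1 of 17 marrow arrays, and differed by 0.22 ± 0.12 (adjusted p = 0.215).

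**Figure D2:**
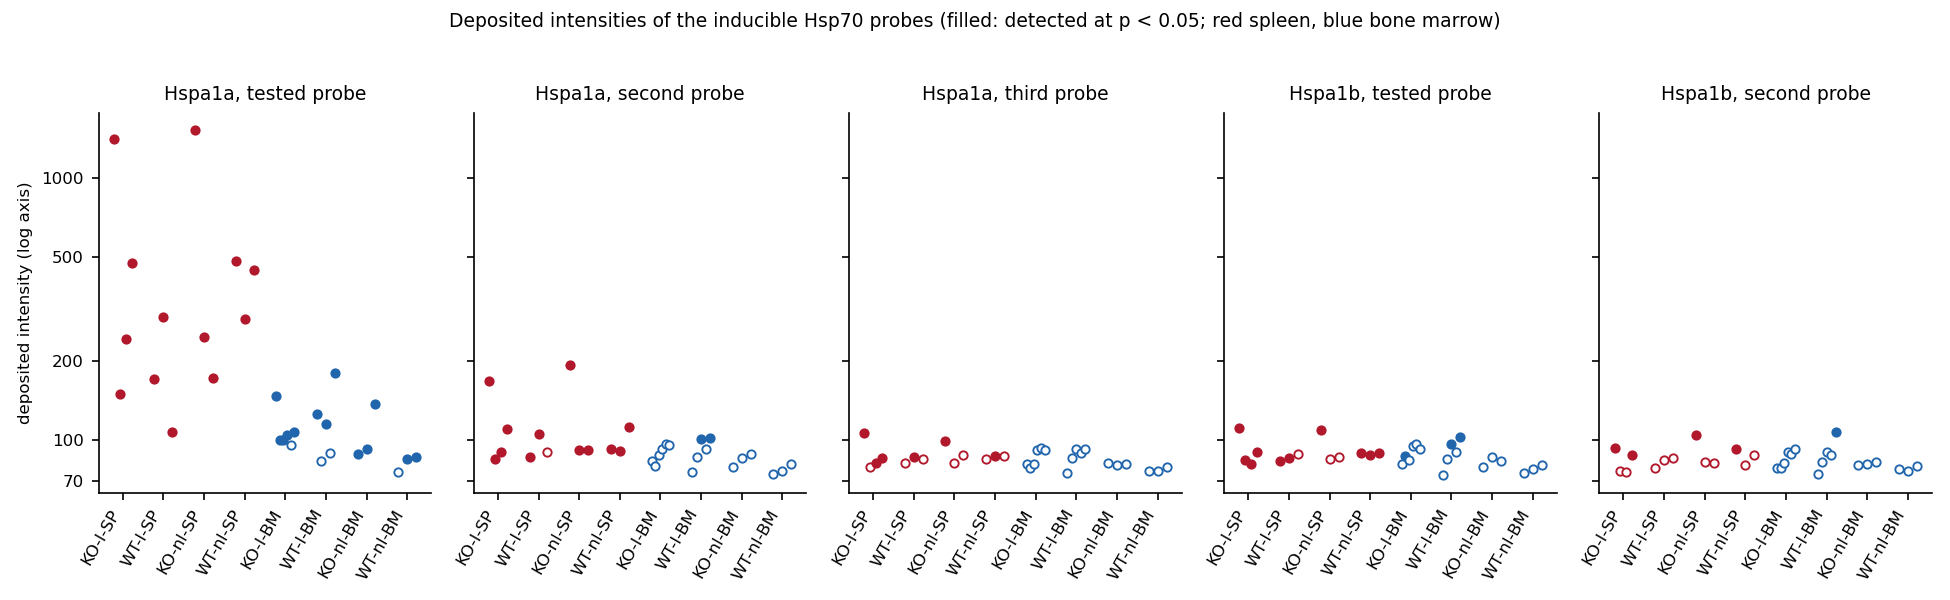
Deposited intensity on a log axis (y) of the 3 Hspa1a and 2 Hspa1b probes on every array by group (x), filled where the probe was detected at p under 0.05, spleen in red and marrow in blue. KO-l-SP replicate 1 and KO-nl-SP replicate 4 are the highest arrays of the tested Hspa1a probe, at 1406 and 1517, and they are also the highest 2 arrays on the other Hspa1a probes and on the tested Hspa1b probe.

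Hsph1 was detected on all 30 arrays. Its log2 values were 9.22, 7.38, 10.29 and 9.92 in KO-l-SP, 9.001, 10.19 and 8.99 in WT-l-SP, 9.68, 9.05 and 8.02 in KO-nl-SP and 8.89, 8.77 and 8.14 in WT-nl-SP. In marrow they were 7.03, 7.50 and 8.64 in KO-l-BM (lowest, median, highest), 8.63, 8.20, 7.04, 7.33 and 7.56 in WT-l-BM, 8.25, 7.76 and 8.78 in KO-nl-BM and 8.55, 8.74 and 8.28 in WT-nl-BM. Spleen was above every marrow array on 9 of 13 arrays, and in leukaemic wild-type mice the spleen arrays lay wholly above the marrow arrays, as did 4.02% of all genes. The difference was 0.96 ± 0.27 over the 4 conditions (limma adjusted p = 0.0181), 1.64 ± 0.53 in leukaemic wild type, 1.47 ± 0.47 in leukaemic knockout, 0.66 ± 0.59 in non-leukaemic knockout and 0.07 ± 0.59 in non-leukaemic wild-type mice, none of the 4 passing alone. The slide 6 mean of Hsph1 differed from that of the other slides by -0.70 within KO-l-BM and -1.11 within WT-l-BM. Without slide 6 the tissue difference was 0.71 ± 0.31 and did not pass (adjusted p = 0.162), nor did it with slide as a block (0.75 ± 0.29, adjusted p = 0.103).

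Hspa8, the constitutive Hsc70, was steady across groups, with log2 values of 12.12 to 12.91 in spleen and 11.83 to 12.54 in marrow. Its difference of 0.21 ± 0.08 missed the threshold (limma adjusted p = 0.0859). Without KO-l-SP replicate 2, KO-nl-SP replicate 6 or WT-l-SP replicate 3, each left out alone, it passed. Its other probes differed by 0.15 ± 0.13 and 0.01 ± 0.11, and the 3 probes followed each other poorly over the arrays (r = 0.01 to 0.48), so the gene's small difference rests on 1 probe.

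The remaining chaperones had tissue differences close to 0, with intervals that take no account of slide. For Dnajb1, the J-domain protein that partners inducible Hsp70, it was -0.18 (95% interval -0.45 to 0.08), and for Dnaja1, a J-domain protein detected on 1 of 13 spleen and 7 of 17 marrow arrays, -0.04 (-0.15 to 0.07). For Hsp90aa1, the stress-inducible Hsp90, it was -0.09 (-0.44 to 0.25). For Hspe1 and Hspd1, the mitochondrial Hsp10 and Hsp60, it was 0.06 (-0.22 to 0.35) and 0.09 (-0.21 to 0.39). A second probe differed by -0.16 ± 0.11 for Hsp90aa1 and by 0.10 ± 0.10 for Hspd1. The median difference of the 9 chaperones was 0.09, and that of all genes 0.01. In non-leukaemic wild-type mice alone Dnajb1 had 8.72, 9.18 and 9.19 in spleen, against 9.68, 9.82 and 9.70 in marrow, which did not overlap, but the difference of -0.70 ± 0.28 did not pass (adjusted p = 0.148); 13.5% of all genes were lower without overlap there.

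**Figure D3:**
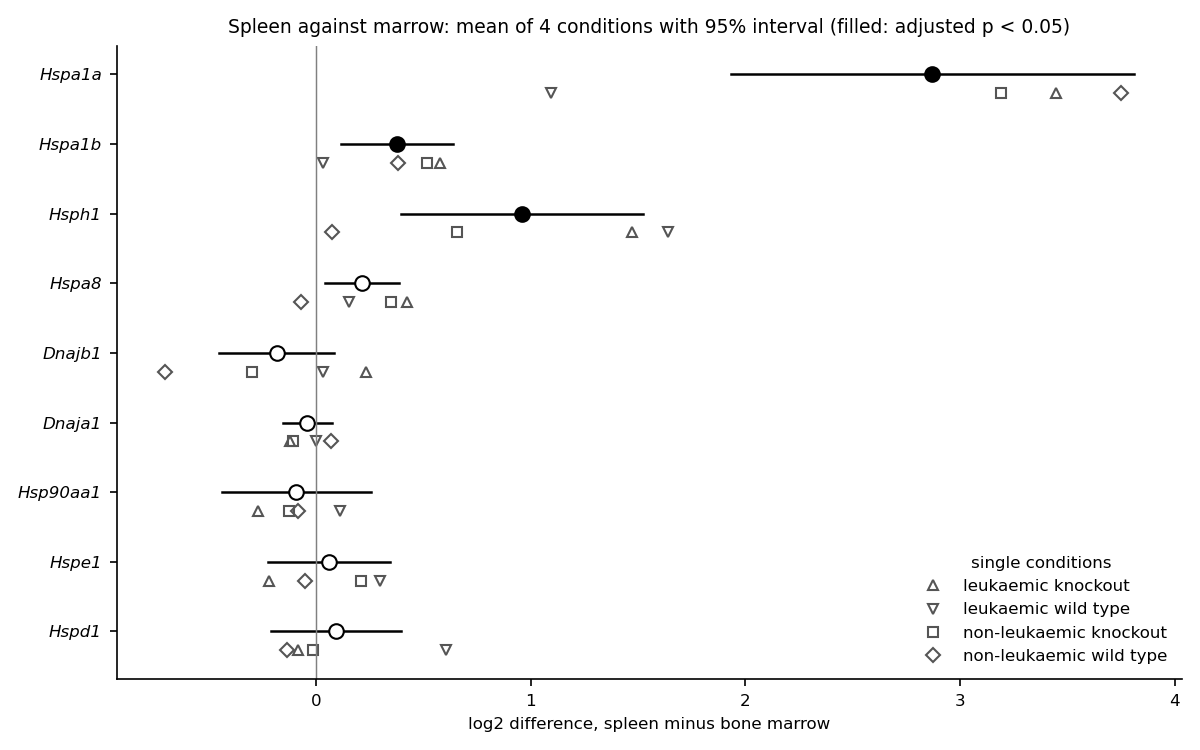
Log2 difference, spleen minus marrow (x axis), for each chaperone (y axis): large circles give the mean over 4 conditions with its 95% interval, filled where the adjusted p was under 0.05, and small symbols give the single conditions. Hspa1a lies at 2.87 and Hsph1 at 0.96, and the intervals of Dnajb1, Dnaja1, Hsp90aa1, Hspe1 and Hspd1 all include 0.

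Most genes that work with these chaperones did not follow Hspa1a. In this contrast 8.5% of all genes were called higher in spleen and 7.25% lower, so the few calls below are not read as results about the lists. Among 23 cochaperones and genes of the HSF1 system, 13 were higher in spleen and 10 lower, and 1 passed, Chordc1, an Hsp90 cochaperone (0.43 ± 0.12, limma adjusted p = 0.0153). Of the 8 subunits of the cytosolic chaperonin TRiC, Cct3 passed (0.35 ± 0.11, adjusted p = 0.0359). Of 15 endoplasmic reticulum chaperones and unfolded protein response genes, Herpud1, which acts in degradation at that membrane, passed (0.35 ± 0.10, adjusted p = 0.0145). Of 7 other mitochondrial chaperones and proteases, Dnaja3, a mitochondrial J-domain protein, was higher (0.24 ± 0.07, adjusted p = 0.0329) and Grpel1, the nucleotide exchange factor of mitochondrial Hsp70, was lower in spleen (-0.21 ± 0.07, adjusted p = 0.0406). The medians of these lists lay between -0.03 and 0.11.

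Immediate-early genes, which many stimuli induce within a short time, moved in the same direction as Hspa1a. Of 18, 16 were higher in spleen, 10 passed and 0 passed lower, with a median difference of 0.68 against 0.01 for all genes. Beside these and the marker counts below stand 8.5% of all genes called higher in spleen and 7.25% called lower. Klf2, a zinc finger transcription factor, was higher by 1.22 ± 0.15 (limma adjusted p = 1.44e-05), Dusp1, a phosphatase of MAP kinases, by 1.05 ± 0.18 (adjusted p = 0.000384) and Klf6, another zinc finger factor, by 0.68 ± 0.11 (adjusted p = 0.000176). Markers of other cells moved as well. All 10 neutrophil markers and 8 of 9 proliferation genes were called lower in spleen, with median differences of -2.78 and -1.46. For neutrophil markers the mean log2 per array was 6.25 to 12.99 in spleen against 9.47 to 12.93 in marrow. For proliferation genes it was 5.73 to 8.89 against 7.54 to 9.38. Of the macrophage markers 7 of 8 were higher and 4 passed, led by Spic, a transcription factor of splenic red pulp macrophages (2.75 ± 0.26, adjusted p = 7.60e-07). Of the erythroid markers 2 of 9 were called lower, of the B cell markers 1 of 6 and of the T and NK cell markers 1 of 7 higher, and of the megakaryocyte markers 0 of 6. The part of these cell types in the chaperone differences was not tested, and in sorted bulk samples fewer cells of a type and less RNA per cell cannot be told apart.

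In leukaemia Hsp90aa1, Hspd1 and Dnajb1 were higher in cells sorted from spleen on average, but no chaperone passed the test. Hspa1a, averaged over both genotypes, was lower by 0.73 ± 0.67 on the log2 scale, and Hsph1 was higher by 0.54 ± 0.40. Over both genotypes 0 of 9 were called in spleen, where limma called 0.00838% of all genes, and 3 of 9 had an unadjusted p under 0.05, as had 15.8% of all genes. Hsp90aa1 had 6.77, 7.44, 7.84 and 7.51 in KO-l-SP and 7.19, 7.80 and 7.92 in WT-l-SP, against 7.13, 6.42 and 7.14 in KO-nl-SP and 7.28, 6.41 and 6.54 in WT-nl-SP. The groups overlapped in both genotypes. The difference, leukaemic minus non-leukaemic, was 0.69 ± 0.25 (limma adjusted p = 0.176) for Hsp90aa1, 0.54 ± 0.22 (adjusted p = 0.227) for Hspd1 and 0.48 ± 0.19 (adjusted p = 0.219) for Dnajb1. With the authors' log2 values all 3 passed, at 0.47, 0.65 and 0.48 (adjusted p = 0.00169, 0.00337 and 0.0338). Proliferation genes moved the same way, 9 of 9 higher with a median of 1.43, as did erythroid markers, 9 of 9 higher with a median of 1.94. T and NK cell markers were higher for 7 of 7 genes (median 1.00), megakaryocyte markers for 6 of 6 (0.64), neutrophil markers for 10 of 10 (0.28) and B cell markers for 4 of 6 (0.12), and macrophage markers were lower for 8 of 8 (-0.84). None of these markers was called, and their part in the chaperone differences was not tested.

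Hspa1a had the widest leukaemia difference in wild-type spleen, downward, as given below. Among Hsp90aa1, Hspd1 and Dnajb1 the widest was that of Hspd1, also in wild-type spleen. It had 9.34, 10.11 and 10.29 in WT-l-SP, against 9.01, 8.68 and 9.09 in WT-nl-SP, so that every leukaemic array was above every non-leukaemic one. The difference was 0.99 ± 0.32, or 1.98-fold (limma adjusted p = 0.123). In knockout spleen it was 0.08 ± 0.29. In wild-type spleen macrophage markers were lower for 8 of 8 genes (median -1.12), and neutrophil markers (10 of 10, median 1.27), proliferation genes (9 of 9, median 1.93) and erythroid markers (9 of 9, median 2.11) were higher, none of them called. Hspe1, whose product caps the Hsp60 chamber, and Hsph1 were also higher without overlap in wild-type spleen, by 0.59 ± 0.30 and 0.80 ± 0.59, and Hspa1a and Hspa1b were lower without overlap, by -1.76 ± 0.98 and -0.24 ± 0.27, against 8.18% of all genes higher and 7.78% lower without overlap. None of the 9 passed in wild-type spleen (0 of 9, with 3 at an unadjusted p under 0.05), where 0.142% of all genes were called and 16.9% had an unadjusted p under 0.05, or in knockout spleen (0 of 9, with 0 at an unadjusted p under 0.05), where 0% were called and 5.31% had an unadjusted p under 0.05. In knockout spleen 0 of 9 were without overlap, against 1.52% of all genes higher and 3.06% lower. Hspd1 in wild-type spleen passed with slide as a block (1.21 ± 0.30, adjusted p = 0.0463), with the authors' values (adjusted p = 0.00408) and without WT-l-SP replicate 1 (1.27 ± 0.33, adjusted p = 0.0433).

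In marrow the leukaemia difference of Hsp90aa1 went with 1 slide. Over both genotypes it was 0.67 ± 0.23 (limma adjusted p = 0.199). In KO-l-BM the arrays of slide 6 had 8.08 to 8.37 and those of other slides 6.96 to 7.21, and in WT-l-BM they had 7.66 to 7.90 on slide 6 and 7.05 to 7.15 elsewhere. The non-leukaemic marrow arrays, all on other slides, had 6.99, 6.99 and 7.09 in KO-nl-BM and 7.01, 6.81 and 6.67 in WT-nl-BM. With slide as a block the leukaemia difference was 0.001 ± 0.190, and without slide 6 it was 0.15 ± 0.20. Hspe1 was also higher on slide 6, by 0.77 in KO-l-BM and 0.84 in WT-l-BM, and Hspd1 by 0.87 in KO-l-BM but 0.01 in WT-l-BM. No chaperone was called for leukaemia in marrow (0 of 9, with 1 at an unadjusted p under 0.05), where 0.00838% of all genes were called over both genotypes and 14.9% had an unadjusted p under 0.05. In either genotype alone 0% of all genes were called. At an unadjusted p under 0.05 there was 1 of 9 in wild-type marrow, against 10.5% of all genes, and 0 of 9 in knockout marrow, against 6.71%. In wild-type marrow Hsp90aa1 was higher and Hspa8 lower without overlap, against 3.02% of all genes higher and 5.48% lower, and in knockout marrow 0 of 9 were, against 1.73% higher and 2.08% lower.

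**Figure D4:**
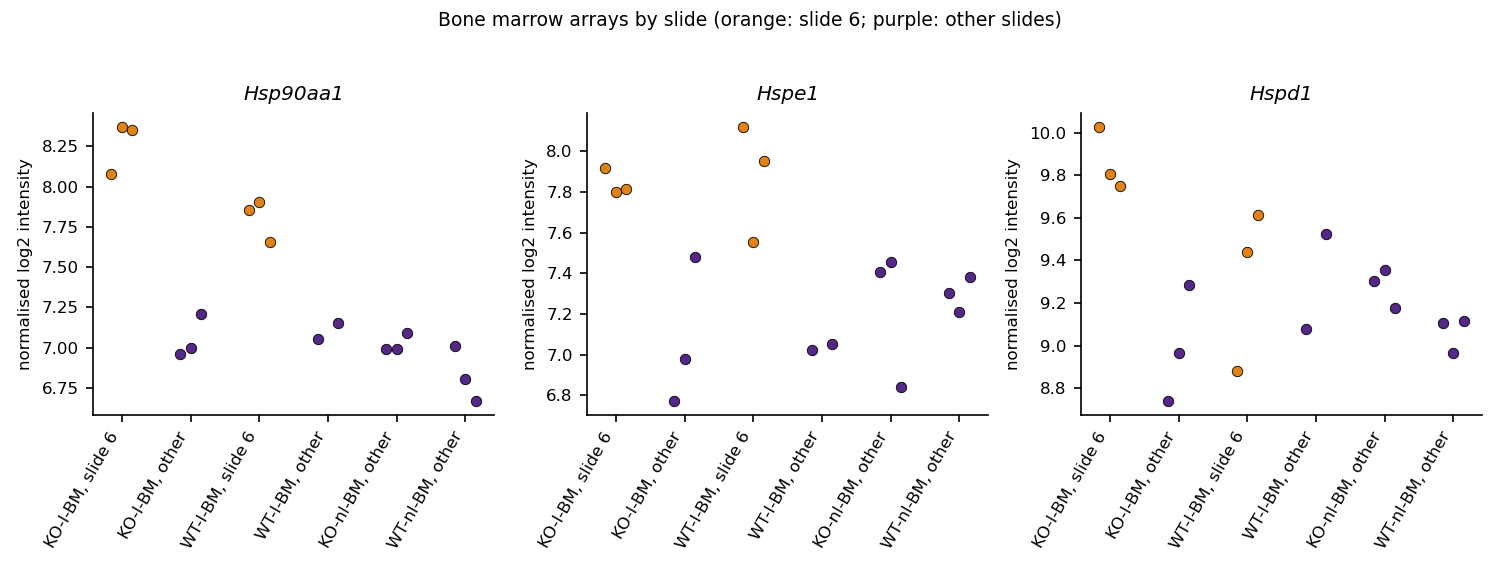
Normalised log2 intensity (y axis) of Hsp90aa1, Hspe1 and Hspd1 on every marrow array, with the leukaemic groups split into arrays of slide 6 (orange) and arrays of other slides (purple) along the x axis. For Hsp90aa1 the 6 arrays of slide 6 lie at 7.66 to 8.37 and every other marrow array at 7.21 or below.

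The leukaemia difference itself was compared between tissues, as spleen minus marrow. None of the 9 passed (0 of 9, with 2 at an unadjusted p under 0.05), against 0% of all genes called and 13.2% at an unadjusted p under 0.05. The contrast was 1.19 ± 0.55 for Hsph1 (limma adjusted p = 0.357) and 0.63 ± 0.26 for Dnajb1 (adjusted p = 0.307). Hsph1 was different by 0.54 ± 0.40 with leukaemia in spleen and by -0.65 ± 0.37 in marrow, where slide 6 held only leukaemic arrays.

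Among related genes, 0 of 23 cochaperones, 0 of 8 TRiC subunits, 0 of 15 endoplasmic reticulum genes and 0 of 7 mitochondrial chaperones were called for leukaemia in spleen or in marrow. Among the cochaperones, the smallest p-values in spleen were those of Stip1, which links Hsp70 to Hsp90 (0.49 ± 0.17, limma adjusted p = 0.165), and Hspa4l, an Hsp110 family member (0.51 ± 0.18, adjusted p = 0.175). All 7 mitochondrial chaperones and 7 of 8 TRiC subunits were above 0 there, with medians of 0.18 and 0.13 against -0.01 for all genes. Calr, a lectin chaperone of the endoplasmic reticulum, differed in spleen by 0.87 ± 0.30 (adjusted p = 0.171). In marrow Dnajb9, an endoplasmic reticulum J-domain protein, differed by 1.05 ± 0.23 (adjusted p = 0.0998).

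Loss of Mif changed no chaperone past the threshold in any of its 4 comparisons. In leukaemic spleen 0 of 9 were called and 3 had an unadjusted p under 0.05, against 0.0419% of all genes called and 5.29% at an unadjusted p under 0.05. The Hspa1a values given above were higher in KO-l-SP than in WT-l-SP by 2.03 ± 0.92 (limma adjusted p = 0.938), with overlap. Hspe1 had 7.06, 7.27, 7.09 and 7.55 in KO-l-SP, against 7.89, 7.98 and 7.65 in WT-l-SP, which did not overlap, and a difference of -0.60 ± 0.28 (adjusted p = 0.938). Hspd1 had a difference of -0.56 ± 0.29 and Hspa1b, also without overlap, one of 0.55 ± 0.26. Of all genes 2% were higher and 2.95% lower without overlap. The 3 WT-l-SP arrays had Xist at 10.78 to 11.15 and the 4 KO-l-SP arrays at 4.39 or less, and since Xist is expressed from female cells, sex and genotype cannot be told apart here. Xist was also uneven in the other spleen comparisons, at 4.24 or less in KO-nl-SP and from 4.10 up to 11.73 in WT-nl-SP. This bears on the leukaemia comparison in wild-type spleen as well. In marrow Xist ran from 4.14 to 10.66 in KO-l-BM and from 4.14 to 11.28 in WT-l-BM. It was at 4.18 or less in KO-nl-BM and at 4.38 or less in WT-nl-BM. Sex can therefore also bear on the leukaemia differences in marrow and on the differences between spleen and marrow. Its part was not tested.

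In the other Mif comparisons 0 of 9 were called each time. In leukaemic marrow all 9 differences lay between -0.32 and 0.14, 0 had an unadjusted p under 0.05, against 2.9% of all genes, and 0.0419% of all genes were called, 0.0168% higher and 0.0251% lower. In non-leukaemic spleen 1 had an unadjusted p under 0.05, Dnajb1 at 0.58 ± 0.28 (limma adjusted p = 0.482), with 10.2% of all genes at an unadjusted p under 0.05 and 0.268% called, 0.142% higher and 0.126% lower. Dnaja1 was lower there without overlap, against 5.8% of all genes higher and 5.24% lower. Its probe was detected on no array of either group, so these values lay at background. In non-leukaemic marrow 0 had an unadjusted p under 0.05, against 5.65% of all genes, and 0.0754% of all genes were called, 0.0251% higher and 0.0503% lower. Hspd1 was higher there without overlap, by 0.21 ± 0.32, against 7.99% of all genes higher and 9.66% lower. The 95% intervals of Hspa1a were wide in each, for example -1.83 to 1.18 in leukaemic marrow, an interval that holds changes of over 2-fold in either direction.

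The chaperones fell into groups by how they varied over the 30 arrays, described here by Pearson's r of normalised log2 values, which tissue, leukaemia, genotype and slide all shape. Hspa1a followed Hspa1b (r = 0.81), Hspa8 (0.64) and Hsph1 (0.61), and Hspa8 followed Hsph1 (0.73). Probes of Hspa1a and Hspa1b may read the same transcripts. Hspa8 was read here by its tested probe alone, and its probes followed each other poorly. Hsp90aa1 followed Hspd1 (r = 0.75), while Hspa1a and Hsp90aa1 did not follow each other (r = -0.27). After group means were subtracted, r was 0.72 for Hspa1a with Hspa1b, 0.65 for Hspa8 with Hsph1 and 0.75 for Hsp90aa1 with Hspd1. Hspd1 was close to the mean of the TRiC subunits (r = 0.84, and 0.80 after group means were subtracted). Hspa1a ran against the mean of the neutrophil markers (r = -0.74, and -0.61 after group means were subtracted).

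The genes most like each chaperone over the 30 arrays, by the same measure, were Amz1, Abr and Etv6 for Hspa1a (r = 0.83 to 0.84), Klrb1b, Prr5l and Rassf5 for Hspa1b (0.67 to 0.68), Snx33, Pank1 and Wrap73 for Hsph1 (0.82 to 0.84) and Pfdn2, Daxx and Spop for Hspa8 (0.85 to 0.86). For Hsp90aa1 they were Arid2, Mtf2 and Hsdl1 (0.81 to 0.85), for Dnajb1 Pold3, Trim56 and Ppm1b (0.75 to 0.79) and for Dnaja1 Ttll7, Gm5458 and Fgfr1op2 (0.67 to 0.69). For Hspe1 they were St13, which encodes an Hsp70 cochaperone, Terf2ip and Igsf6 (0.77 to 0.79), and for Hspd1 Timm8a1, a chaperone of mitochondrial import, Park7 and Lyar (0.81 to 0.82). With group means subtracted, Snx33 was again the closest to Hsph1 (r = 0.90).

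The order of the 8 group means had few clear steps. For Hspa1a KO-l-SP (8.54 ± 1.69, SD, n = 4) was highest, then came WT-nl-SP (8.26 ± 0.24, n = 3), KO-nl-SP (8.24 ± 2.35, n = 3), WT-l-SP (6.51 ± 1.62, n = 3) and the 4 marrow groups at 4.51 to 5.41, and no neighbouring pair was further apart than the larger of its SDs. The same held for Hspa8, Hsph1, Hsp90aa1, Hspe1 and Hspd1. The steps that exceeded both SDs were those between WT-nl-SP and WT-l-SP for Hspa1b, between WT-l-BM and WT-nl-SP for Dnajb1 and between KO-l-SP and KO-nl-SP for Dnaja1, whose probe was detected on no array of those last groups.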

How the data were processed

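Sorted F4/80-positive cells were the source of the RNA, which was isolated with TRIzol and labelled as biotinylated cRNA per the labels' protocols. For each array the authors deposited linear probe intensities that were not normalised, each with its detection p-value. They also deposited log2 values, and Partek is named in the submitters' processing notes; no source used here gives their normalisation. All columns of the deposited log2 values had a median of 6.41 and had a correlation of 0.99 or more with the logarithm of that array's intensities, so the scale is settled, while centring and any adjustment for slide stay unknown. They were used as an alternative only.

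The neqc function of limma 3.58.1 (R 4.3.3) corrected the intensities for background, inferred from the detection p-values, added an offset of 16 and applied quantile normalisation. A probe was called detected at p under 0.05, and the 23515 probes with at least 3 such arrays were used. Of the probes, 34885 had 1 symbol in the platform annotation, 18 several and 10378 none, and 34807 were matched by gene ID to RefSeq (GRCm38.p6). The kept probe with the highest mean stood for its gene.

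A model of the 8 groups was fitted to all 11937 genes (lmFit, eBayes) and 16 contrasts were tested at a Benjamini-Hochberg adjusted p of 0.05; differences are on the log2 scale with their SE. Members, lists, contrasts and alternatives were chosen with earlier results of these data known. Named genes are the members, Mif, for each list the called genes with the smallest p (at most 3, or the 2 smallest p where none was called), and the 3 genes most like each member; Adgre1 and Xist were added as checks, and related genes are named for the main contrasts. The number of arrays limits the precision. On simulated data with 200 of 11937 genes changed, 98% of 2-fold changes were recovered for tissue over 4 conditions (8 false calls). The share was 79% for leukaemia in spleen over both genotypes (8) and 65% for Mif loss in leukaemic spleen (7). The simulated noise was independent between genes, with no slide effect and no variation shared between genes. The changed genes were drawn from all genes. These shares need not hold for variable members such as Hspa1a and Hsph1, with within-group SDs of 1.31 and 0.73. Replicate numbers were checked for pairing. In 0 of 23 pairs of groups did every same-numbered pair of arrays deviate together at a correlation over 0.1 (median -0.04). Only spleen and marrow groups of the same genotype and leukaemia state can share mice, and most of the 23 pairs were of other kinds. Between those groups the mean same-number correlation was 0.02 in leukaemic knockout, -0.29 in leukaemic wild type and 0.08 in non-leukaemic wild type. The check cannot decide whether animals were shared.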

Additional observations from a re-analysis of the deposited data

Results flagged for a closer look

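Each chaperone was checked for a lone array in the groups of 4 to 6 arrays, 27 checks in all. In 2 of the 27 an array lay apart from the others of its group. Chance alone gives about 1 in 20, so 2 of 27 is near that share. Hspa1b was highest in KO-l-BM replicate 2 at log2 4.58, with the other 5 arrays at 4.21 to 4.31, and that array was the only one of the 6 to detect the probe. Hspa8 was lowest in KO-l-SP replicate 2 at log2 12.22, with the other 3 arrays at 12.69 to 12.78. That spleen array had a marrow array as its closest match. In 72 pairs of leukaemia or Mif differences of the members, set side by side between tissues, genotypes or conditions, none had its arrays wholly apart in opposite directions, and none of the 9 tested contrasts of the leukaemia difference between tissues passed.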

How the results depend on the processing

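Over the 4 conditions together, 3 chaperones were called between spleen and marrow, and the call of Hspa1a was kept under all 12 other settings and without any 1 of the 30 arrays. With the authors' log2 values, 5 were called over the 4 conditions (Hspa8 and Hspe1 added), 3 in leukaemic wild type, 2 in leukaemic knockout, 2 in non-leukaemic wild type and 1 in non-leukaemic knockout; for leukaemia 3 were called in spleen over both genotypes, 2 in wild-type spleen and 1 for the contrast between tissues. In non-leukaemic wild type 0 were called without background correction, with no filter on dim probes, or without KO-l-SP replicate 2, WT-nl-SP replicate 1 and WT-l-SP replicate 3, where leukaemic knockout had 4. Slide as a fixed block gave 0 in leukaemic knockout and 1, Hspd1, for leukaemia in wild-type spleen. Array weights gave 1 in leukaemic wild type, 2 in leukaemic knockout, 1 in non-leukaemic knockout and 3 for leukaemia in marrow over both genotypes (Hsph1, Hsp90aa1 and Hspe1). A fit of the compared groups alone gave 0 in leukaemic knockout. Without slide 6, an alternative chosen after seeing the data, 1 was called over the 4 conditions, 0 in leukaemic knockout and 0 in non-leukaemic wild type; leaving out the 2 arrays with the highest Hspa1a was likewise chosen after seeing the data. The cause was not tested. Leaving out 1 array gave 2 to 4 calls over the 4 conditions, 0 to 4 in leukaemic knockout, 0 to 1 in non-leukaemic wild type, 0 to 1 in non-leukaemic knockout (1 without KO-nl-SP replicate 6) and 0 to 1 for leukaemia in wild-type spleen (1 without WT-l-SP replicate 1). The counts over all genes moved as widely: 1487 to 2203 over the 4 conditions (1880 with every array), 4 to 968 in leukaemic knockout (280), 13 to 853 in non-leukaemic wild type (461), 0 to 166 in non-leukaemic knockout (0) and 0 to 340 for leukaemia in wild-type spleen (17). No called value changed sign under any of these settings.

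The check of replicate numbers does not exclude shared animals. With the replicate number as a block, 3 chaperones were called over the 4 conditions and 0 in leukaemic knockout, where Hspa1a differed by 3.11 (limma adjusted p = 0.109).

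Hspa1b, Dnaja1 and the weaker Hspa1a probes lay near background, which limits what their small differences show. Quantile normalisation sets every array to the same distribution, so a shift shared by most genes cannot be seen.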
